A study of Mus musculus with 4 samples.

Results

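The calcineurin, NFAT and Rcan genes examined here are 10 genes that encode the calcium-activated phosphatase calcineurin, the transcription factors it activates and proteins that hold it in check. They were taken as the probe sets whose only gene symbol in the array annotation was one of Rcan1, Rcan2, Ppp3ca, Ppp3cb, Ppp3r1, Nfatc1, Nfatc2, Nfatc3, Nfatc4 and Cabin1. All 10 were found, with 1 probe set each, among 19938 genes that had such a probe set. RNA came from mouse hearts taken 1 week after surgery for TAC, a constriction placed on the transverse aorta so that the heart pumps against raised pressure. There were 3 arrays of RNA from MAFbx knockout (KO) heart and 1 array of RNA from wild type (WT) heart, all after TAC, so no unloaded heart is part of the comparison. How the knockout was made, and the strain, age and sex of the mice, are not stated by the labels used here. The labels number the samples but do not say that each came from a separate animal, so p-values measure only the spread between these samples, and that spread comes from the 3 KO arrays.

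Calcineurin is a heterodimer of a catalytic A subunit and a calcium-binding B subunit, switched on by calcium and calmodulin. It removes phosphates from cytoplasmic NFAT proteins, which then enter the nucleus, and in the mouse heart an active calcineurin transgene is enough to drive hypertrophy. Rcan1 is both an inhibitor of calcineurin and one of the genes NFAT switches on, and the level of its shorter transcript is widely used as a readout of calcineurin activity. MAFbx, also called atrogin-1, is a muscle F-box protein known to bind calcineurin A and direct its ubiquitination and breakdown. The comparison therefore asks how RNA of the pathway differed in pressure-loaded hearts without that ligase. The arrays measured RNA, and neither calcineurin protein nor its activity was measured.

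Fbxo32, the gene of MAFbx, read 5.65, 5.61 and 5.56 on the KO arrays and 7.54 on the WT array (log2 RMA values, as are all levels below). The log2 difference, KO mean minus WT here and throughout, was -1.93 (SE 0.17, limma adjusted p = 0.0573 over 16708 genes). The place of the Fbxo32 probe set relative to the part of the gene altered in the knockout was not analysed here. Across the genes tested limma called 1 lower (Hmox1, 0.00599% of those tested) and 0 higher (0%) at an adjusted p under 0.05, and without KO 1, KO 2 or KO 3 it called 0. At an unadjusted limma p under 0.05, 3.87% were lower and 1.72% higher. An exact permutation test of 3 arrays against 1 cannot give a p below 0.25. The 7 cardiomyocyte markers read 11.52 or more on every array. The arrays also differed in sex-linked transcripts. Xist, the RNA of the inactive X chromosome, read 9.18 and 9.52 on KO 1 and KO 2, 3.20 on KO 3 and 4.13 on WT 1, while the Y-linked Eif2s3y read 3.31, 3.64, 8.49 and 8.57 on the same arrays. KO 3 thus shared its pattern with WT 1, so the genotypes cannot be fully told apart from this split. The difference of KO 3 from WT 1 is given below for Rcan1 and for some of the other genes.

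Rcan1 was the member that stood apart, and it read lower in the KO hearts without passing the test. It (probe set 10440993) read 9.39, 9.91 and 9.81 on the KO arrays and 10.58 on the WT array. All 3 KO values lay below the WT value, the nearest by 0.67, and the KO values themselves spanned 0.52. The KO mean was 9.70 ± 0.28 (SD, n = 3), 1.84-fold lower than WT. The log2 difference was -0.88 (SE 0.24, 95% interval from -1.44 to -0.31), with a limma adjusted p = 0.588 over all genes, so Rcan1 did not pass the threshold, though its unadjusted p was under 0.05. KO 3 against WT 1, the arrays that share the low Xist level, differed by -0.77. A fit with the Xist class as a covariate takes its genotype term from that pair of arrays alone, so it gives the same -0.77 (SE 0.32), and its unadjusted limma p was above 0.05. In hearts measured in bulk, fewer cells that carry an RNA and less of it per cell cannot be told apart.

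**Figure D1:**
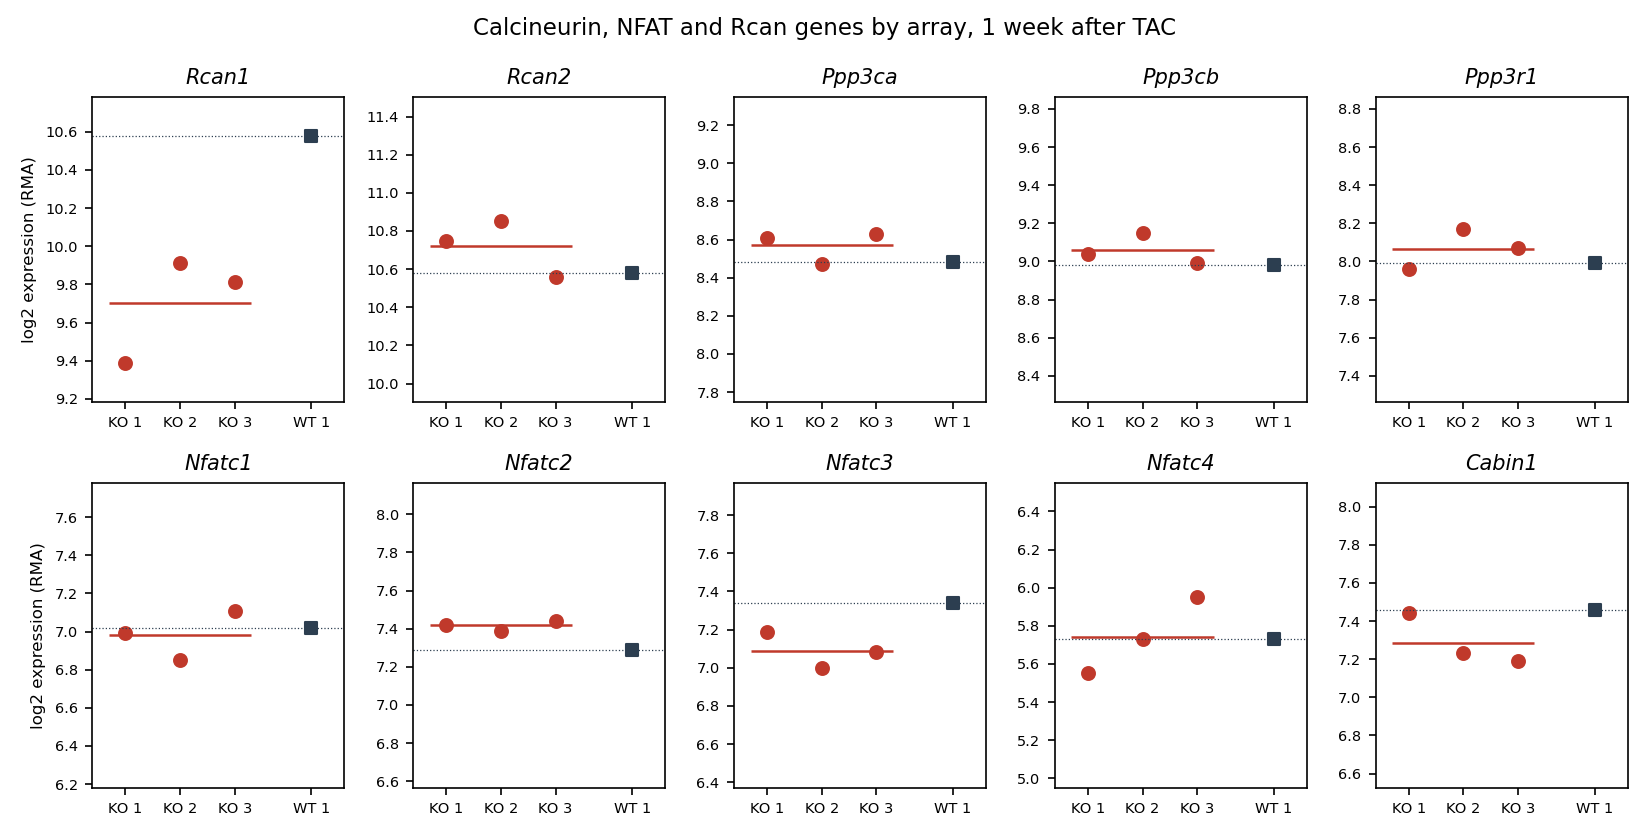
Log2 RMA expression (vertical axis, spanning 1.6 units in every panel) of the 10 genes on the KO arrays (red circles, with their mean as a line) and the WT array (dark square and dotted line). Rcan1 has all 3 KO values well below the WT value of 10.58, whereas the other genes lie within 0.34 of their WT value on every KO array.

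Among all genes tested, 3.22% had a KO mean at least 1.5-fold lower than WT, and Rcan1 was the 1 of 10 members to do so. No member was at least 1.5-fold higher, as 1.14% of all genes tested were. By the absolute size of its difference it ranked 221 of 16708. Such a rank describes these 4 arrays and is not a test. The 9 other members each had 3 array differences from WT, 27 in all, which lay between -0.34 and 0.27.

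RefSeq lists a pair of start sites for mouse Rcan1, 66091 bases apart on the minus strand of chromosome 16. The upstream start opens the longer transcript, and the internal start opens the shorter one that calcineurin and NFAT are known to induce. The window around each start (250 bases before to 50 after, RefSeq, GRCm38.p6) is printed because only 1 of them holds the letters of the NFAT core. Capitals mark GGAAA on either strand (TTTCC as read here), the core that NFAT binds, and TGANTCA, the AP-1 motif, which reads the same on both strands. AP-1 is the Fos and Jun factor that often binds DNA beside NFAT.
Rcan1 internal start, chr16:92400029-92400328, minus strand: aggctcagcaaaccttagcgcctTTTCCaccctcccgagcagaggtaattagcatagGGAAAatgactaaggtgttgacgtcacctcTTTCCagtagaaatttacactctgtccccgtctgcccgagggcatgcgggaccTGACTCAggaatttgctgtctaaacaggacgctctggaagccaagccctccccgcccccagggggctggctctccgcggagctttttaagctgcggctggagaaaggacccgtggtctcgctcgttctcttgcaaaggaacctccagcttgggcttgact
Rcan1 upstream start, chr16:92466120-92466419, minus strand: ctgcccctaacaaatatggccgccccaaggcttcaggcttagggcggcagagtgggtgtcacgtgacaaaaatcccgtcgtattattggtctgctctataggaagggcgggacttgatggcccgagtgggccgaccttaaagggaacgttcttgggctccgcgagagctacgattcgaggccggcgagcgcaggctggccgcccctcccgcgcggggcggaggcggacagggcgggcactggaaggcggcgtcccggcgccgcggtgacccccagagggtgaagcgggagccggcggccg
The internal window held 3 NFAT cores, which begin 227, 193 and 163 bases before the start, and 1 AP-1 motif 110 bases before it, with no overlap between them. The upstream window held 0 of either motif and was richer in G and C (67.7% against 56.3% in the internal window). Among 32851 promoter windows of this length 9.42% held at least 3 NFAT cores, 61.3% at least 1, and 7.81% at least 1 AP-1 motif. These matches describe letters only. The array gives 1 value for Rcan1, and which transcript its probes read was not analysed here, so the 9.70 and 10.58 above cannot be assigned to either start.

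The NFAT core was no mark of Rcan1 alone among the members. Windows were found for 8 members, 13 windows in all, and 7 of them held at least 1 NFAT core, against 61.3% of all windows. Ppp3cb held 4 (2.65% of all windows hold as many), and Nfatc4 and the upstream Nfatc2 window held 3 each. Rcan2 held 2 in its first window, and its last had 1 AP-1 motif. Nfatc3 held 1 NFAT core, in its first window. The log2 differences of these genes were 0.08 for Ppp3cb, 0.01 for Nfatc4, 0.13 for Nfatc2, 0.14 for Rcan2 and -0.25 for Nfatc3. Ppp3ca and Nfatc1 were not matched to a window.

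Rcan2, the second calcipressin of the heart and likewise a calcineurin inhibitor, overlapped between the groups. It (probe set 10445325) read 10.75, 10.85 and 10.56 on the KO arrays and 10.58 on the WT array. KO 3 read just under WT 1, and KO 1 and KO 2 above it. The log2 difference was 0.14 (SE 0.19, 95% interval from -0.31 to 0.59, limma adjusted p = 0.990). The interval runs from 1.24-fold lower to 1.51-fold higher, so a change of the size seen for Rcan1 lies outside it. The direction was lost in KO 3 against WT 1, which differed by -0.02.

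The calcineurin subunit genes among the members read close to the WT value on every array. Ppp3ca encodes the alpha form of the catalytic subunit, and its probe set 10496338 read 8.61, 8.47 and 8.63 on the KO arrays and 8.48 on the WT array. Ppp3cb, the beta form, which hearts of mice need for full hypertrophy, read 9.04, 9.15 and 8.99 on the KO arrays and 8.98 on the WT array (probe set 10417895). Ppp3r1, the regulatory B subunit that binds calcium, read 7.96, 8.17 and 8.07 on the KO arrays and 7.99 on the WT array (probe set 10374415). Ppp3cb was the one with all KO arrays above WT, by as little as 0.01 for KO 3, and the other two genes overlapped. The log2 differences were 0.09 (SE 0.18) for Ppp3ca, 0.08 (SE 0.18) for Ppp3cb and 0.08 (SE 0.18) for Ppp3r1, with limma adjusted p = 0.993, 0.995 and 0.997. For Ppp3ca the 95% interval ran from 1.25-fold lower to 1.42-fold higher, and those of Ppp3cb (1.26-fold lower to 1.41-fold higher) and Ppp3r1 (1.27-fold lower to 1.42-fold higher) were alike. With 4 arrays such intervals are wide, and differences larger than these limits missed the threshold over all genes too, as Rcan1 did.

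Cabin1, a nuclear protein that binds and inhibits calcineurin and also represses MEF2 factors, had all KO arrays under the WT value. It (probe set 10369948) read 7.44, 7.23 and 7.19 on the KO arrays and 7.46 on the WT array. KO 1 stood only 0.02 below WT 1. The log2 difference was -0.17 (SE 0.19, 95% interval from -0.62 to 0.27, limma adjusted p = 0.973).

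Of the 4 NFAT genes, Nfatc3 read lower and Nfatc2 higher than WT on every KO array, and neither passed the test. Nfatc3, whose loss reduces calcineurin-driven hypertrophy in mice, read 7.19, 7.0 and 7.08 on the KO arrays and 7.34 on the WT array (probe set 10574962). Its log2 difference was -0.25 (SE 0.18, 95% interval from -0.67 to 0.17, limma adjusted p = 0.950), the next after Rcan1 in size among the members. KO 3 against WT 1 gave -0.26.

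Nfatc2, an NFAT protein of both muscle and lymphocytes, read 7.42, 7.39 and 7.44 on the KO arrays and 7.29 on the WT array (probe set 10489961). The KO values were the tightest of the members, with an SD of 0.03, against a median KO SD of 0.16 over all genes tested. The log2 difference was 0.13 (SE 0.17, limma adjusted p = 0.990), an SE that limma draws toward the spread of other genes. Its 95% interval ran from 1.21-fold lower to 1.44-fold higher.

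Nfatc1 and Nfatc4 overlapped between the groups. Nfatc1, the NFAT protein that endocardial cells need to form heart valves, read 6.99, 6.85 and 7.11 on the KO arrays and 7.02 on the WT array (probe set 10459944), a log2 difference of -0.04 (SE 0.19, limma adjusted p = 0.997). Nfatc4, which was first tied to cardiac hypertrophy through its binding to GATA4, read 5.55, 5.73 and 5.95 on the KO arrays and 5.73 on the WT array (probe set 10415396), with a log2 difference of 0.01 (SE 0.21, limma adjusted p = 0.997). For both genes KO 1 and KO 3 lay on opposite sides of WT 1, and the sign of the mean turned when 1 KO array was left out, as it did for Nfatc1 without KO 2 (0.03) and for Nfatc4 without KO 3 (-0.09).

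**Figure D2:**
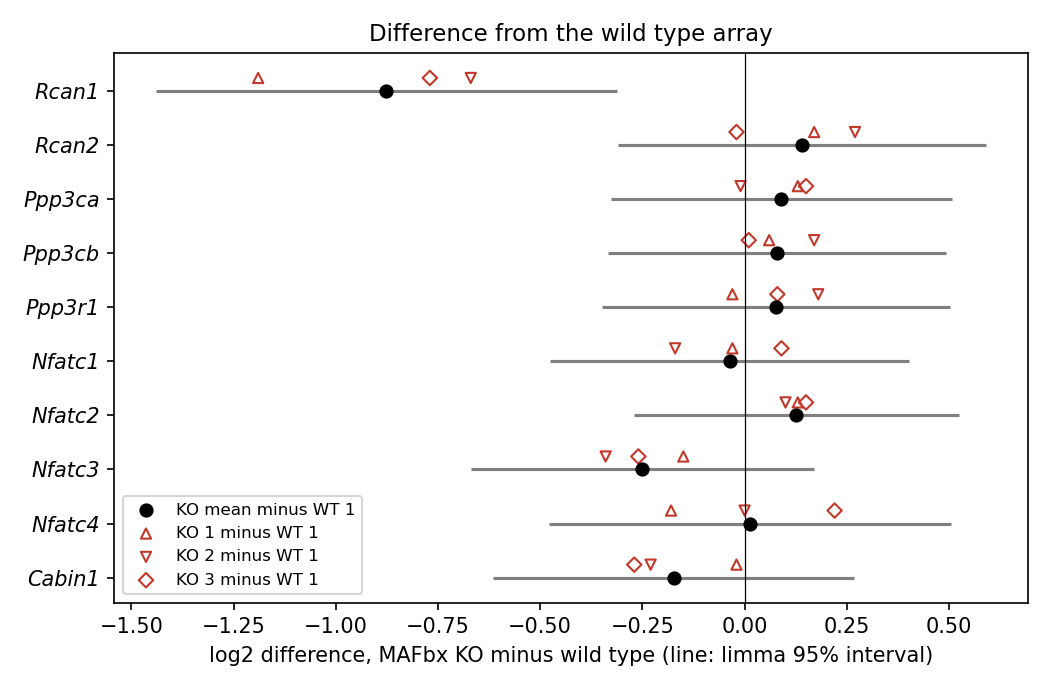
Log2 difference from the WT array for each of the 10 genes, as the KO mean (black point) with its limma 95% interval (grey line) and as the single KO arrays (open red symbols). The interval of Rcan1, from -1.44 to -0.31, is the one that does not hold 0, and it takes no account of the number of genes tested.

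Over the 10 members 0 passed the limma threshold over all genes. At an unadjusted limma p under 0.05, 1 was lower (Rcan1) and 0 were higher, against 3.87% and 1.72% of all genes tested. All 3 KO arrays lay below WT for 3 members (Rcan1, Nfatc3 and Cabin1) and above it for 2 (Ppp3cb and Nfatc2), and 5 overlapped or were level with WT. Of all genes tested 24.2% lay wholly below and 24.2% wholly above, so these counts are near the background. The median log2 difference of the members was 0.05, against 0.0033 over all genes tested. The median absolute difference was 0.11 for the members and 0.14 for all genes tested.

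The wider pathway was read from lists of other calcineurin, calcium and NFAT genes, chosen with earlier results of these data known. Of 13 further calcineurin subunits, binders and inhibitors 12 were tested, and 1 passed an unadjusted limma p under 0.05, lower (Lmcd1). At that threshold 3.87% of all genes tested were lower and 1.72% higher. Lmcd1 is a LIM protein of striated muscle that activates calcineurin in mouse hearts, and it read 7.69, 7.79 and 7.72 on the KO arrays and 8.48 on the WT array. The KO values lay within 0.10 of each other, and the log2 difference was -0.75 (SE 0.17, limma adjusted p = 0.472), with -0.76 for KO 3 against WT 1. Ppp3cc, the gamma form of the catalytic subunit, was at -0.24 (SE 0.18) and read below WT on each KO array. Rcan3, the remaining calcipressin, was at 0.04 (SE 0.17). Myoz2, calsarcin-1, which tethers and restrains calcineurin at the Z-disc, was at 0.29 (SE 0.18) and read above WT on each KO array. The related Myoz1 went the other way, at -0.39 (SE 0.22), and read below WT on each KO array. Of the 12 genes 5 lay wholly below and 3 wholly above WT, with a median of 0.02. Over all genes tested the shares were 24.2% wholly below and 24.2% wholly above. Ppp3r2, the testis form of the B subunit, read 2.72 to 2.87 on the KO arrays and 2.76 on the WT array, under the filter on dim probe sets.

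Genes that supply calcium and calmodulin split in direction. Of 9 tested, 0 passed an unadjusted limma p under 0.05, whereas 3.87% of all genes tested were lower and 1.72% higher. In this list 2 lay wholly below WT and 3 wholly above, with a median of 0.08. Over all genes tested the shares were 24.2% and 24.2%. The calmodulin genes Calm2 and Calm3 were the 2 that read lower, at -0.55 (SE 0.24) and -0.29 (SE 0.17). KO 3 against WT 1 gave -0.22 for Calm2 and -0.29 for Calm3. Calmodulin genes have near-identical copies in the genome, so the Calm2 value is uncertain. The calcium channel genes Cacna1c and Cacna1h, the L-type and a T-type pore subunit, were at 0.52 (SE 0.24) and 0.35 (SE 0.25). Itpr2, a calcium release channel, was at 0.24 (SE 0.18). Between KO 3 and WT 1 these genes differed by 0.24 (Cacna1c), 0.25 (Cacna1h) and 0.27 (Itpr2). For Stim1 and Orai1, which carry store-operated calcium entry, the values were 0.08 and 0.06.

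Among the calcium-independent NFAT5, the kinases that return NFAT to the cytoplasm and the nuclear transport genes, 11 were tested. Xpo1, the exportin that carries NFAT out of the nucleus, was the 1 gene under an unadjusted limma p of 0.05. It read 7.41, 7.50 and 7.67 on the KO arrays and 7.97 on the WT array (-0.44, SE 0.19, adjusted p = 0.887). Kpnb1, importin beta, was at -0.39 (SE 0.18). The NFAT kinase genes Gsk3a, Gsk3b and Dyrk1a overlapped WT, at -0.12, 0.08 and -0.08, whereas Dyrk2 and Csnk1a1 read lower on each KO array, at -0.26 and -0.21. In this group 5 lay wholly below and 1 wholly above WT, with a median of -0.12. Over all genes tested 24.2% lay wholly below and 24.2% wholly above. At an unadjusted limma p under 0.05, 3.87% of all genes tested were lower and 1.72% higher. Of the 4 factors that act with or beside NFAT in the heart, Gata4, Mef2a, Mef2c and Mef2d, 0 passed an unadjusted limma p under 0.05, and they ranged from -0.17 for Gata4 to 0.13 for Mef2c.

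**Figure D3:**
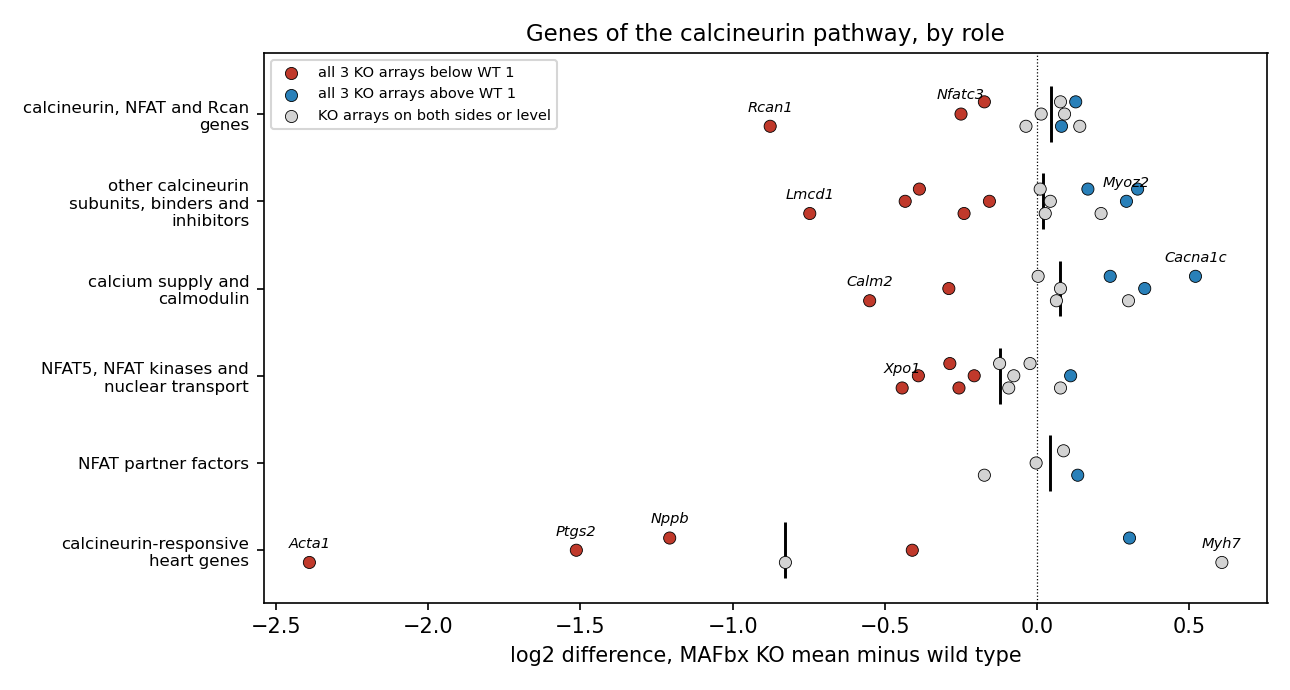
Log2 difference of the KO mean from WT for each tested gene of the pathway, grouped by role, with the group median as a bar. Red points have all 3 KO arrays below WT, blue points all 3 above, and grey points overlap. Rcan1 at -0.88 and Lmcd1 at -0.75 lie apart from the other regulators, and the heart genes known to respond to calcineurin spread from -2.39 (Acta1) to 0.61 (Myh7).

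Heart genes known to respond to calcineurin or NFAT lay on both sides of WT. Of 7 tested, 2 passed an unadjusted limma p under 0.05, both lower, against 3.87% of all genes tested. In the list 4 lay wholly below WT and 1 wholly above, against 24.2% and 24.2% of all genes tested. The list median was -0.83. The list was chosen with earlier results of these data known, so its counts and median are not a test. Nppb, B-type natriuretic peptide, read 10.75, 11.34 and 11.52 on the KO arrays and 12.41 on the WT array (-1.21, SE 0.30, limma adjusted p = 0.544). Ptgs2, the inducible cyclooxygenase, read 6.42, 6.30 and 6.53 on the KO arrays and 7.93 on the WT array (-1.51, SE 0.18, limma adjusted p = 0.105). For both genes every KO value was under WT, as for 24.2% of all genes tested. KO 3 against WT 1 gave -0.89 for Nppb and -1.4 for Ptgs2. Edn1, endothelin 1, was at -0.41 (SE 0.19) and also lay wholly below. Nppa and Myh7, by contrast, differed by 0.14 and -0.15 between KO 3 and WT 1, and Acta1 by -0.23. KO 1 and KO 2 were far from WT, lower for Nppa (-1.47 and -1.15) and Acta1 (-4.48 and -2.46). For Myh7 they were higher (1.28 and 0.69). The log2 differences were -0.83 (SE 0.55) for Nppa, 0.61 (SE 0.47) for Myh7 and -2.39 (SE 1.32) for Acta1. For Adssl1, a muscle enzyme of purine metabolism, the difference was 0.30 (SE 0.22). The list median was -0.23 in KO 3, against -1.47 in KO 1 and -1.07 in KO 2, each set against WT 1.

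Over the 4 arrays, the 3 named genes with the profile most like that of Rcan1 were Abracl, Pdlim3 and Tpd52. Likeness was the Euclidean distance between log2 profiles after subtraction of each gene's mean. Pdlim3, a PDZ and LIM protein of the muscle Z-disc, read 7.69, 8.15 and 8.14 on the KO arrays and 8.81 on the WT array, at a distance of 0.083 from Rcan1. Abracl and Tpd52 lay at 0.070 and 0.084. Their log2 differences were -0.82 (Pdlim3), -0.87 (Abracl) and -0.85 (Tpd52), and the likeness rests on 4 arrays. The genes were picked by this distance on the same arrays, so differences near that of Rcan1 follow from the choice.

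All macrophage markers and most smooth muscle markers read below WT on the same arrays as Rcan1. All 7 macrophage markers lay wholly below WT, against 24.2% of all genes tested. At an unadjusted limma p under 0.05, 6 of them were lower, against 3.87% of all genes tested. The summed linear signal of these markers was 1071.8 to 1454.2 on the KO arrays and 2470.7 on the WT array. The lowest reading was 4.74, for Ccr2 in KO 1. Of 4 smooth muscle markers 3 lay wholly below WT (Acta2, Cnn1 and Tagln), again against 24.2% of all genes tested. Myh11, smooth muscle myosin, overlapped WT (log2 difference 0.24). The 4 smooth muscle markers had a sum of 1468.6 to 2155.8 on the KO arrays and 2631.2 on the WT array. In KO 1, KO 2 and KO 3 Acta2 differed from WT by -1.05, -0.45 and -0.78, Cnn1 by -1.05, -0.60 and -0.71, Tagln by -0.84, -0.01 and -0.45, and Myh11 by 0.32, 0.48 and -0.08. The part of these cells in the Rcan1 difference was not tested. The marker lists were also chosen with earlier results of these data known.

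In the other marker lists the sums on the KO arrays lay on both sides of the sum on the WT array. The 7 cardiomyocyte markers summed to 63915.7 to 68254.1 on the KO arrays and 64928.5 on the WT array, with a median log2 difference of 0.11. Fibroblast markers (5) summed to 6547.9 to 15564.6 on the KO arrays and 10538.3 on the WT array, with KO 3 the highest. Endothelial markers (5), of interest beside Nfatc1, summed to 2602.1, 2905 and 3596.5 on KO 1, KO 2 and KO 3 and 2603.8 on the WT array. Only KO 1 lay under the WT sum, and barely. Of these markers 0 lay wholly below WT and 2 wholly above, with a median log2 difference of 0.20. Over all genes tested 24.2% lay wholly below and 24.2% wholly above. The 6 T cell markers, of interest beside Nfatc2, summed to 210.3 to 236.7 on the KO arrays and 213.0 on the WT array, with single values between 4.16 and 5.93, against a filter level of 4.10. B cell markers were dimmer still, with 1 of 3 above the filter and sums of 61.6 to 77.3 on the KO arrays and 69.8 on the WT array. RMA values do not reach 0, so no marker was listed at 0.

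**Figure D4:**
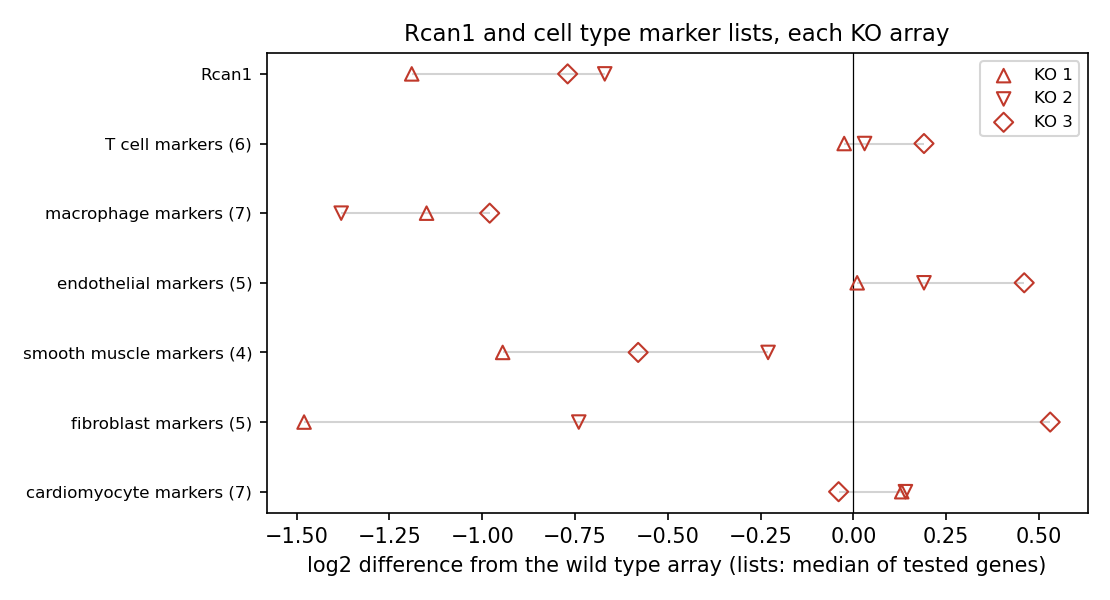
Log2 difference of each KO array (open symbols) from the WT array for Rcan1 and, for each cell type, the median over its tested marker genes (number in brackets). In KO 1, 2 and 3 Rcan1 lies at -1.19, -0.67 and -0.77 and the macrophage median at -1.15, -1.38 and -0.98. The smooth muscle median lies at -0.95, -0.23 and -0.58, though its member Myh11 is at 0.32, 0.48 and -0.08. The fibroblast median lies at -1.48, -0.74 and 0.53, and the cardiomyocyte median between -0.04 and 0.14.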

How the data were processed

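Total RNA of 4 mouse heart samples was labelled with biotin and hybridised to Affymetrix Mouse Gene ST arrays, 1 per sample. The deposited values are log2 expression per probe set, made by the authors with Affymetrix Expression Console and RMA, per the submitters' processing notes. RMA evens out the arrays' distributions, so a shift common to most genes is lost, and it compresses differences between dim genes. Of 35556 probe sets 21789 had 1 gene symbol, 1621 several and 12146 were unlisted in the platform annotation. The highest-mean probe set stood for a gene, and those with a mean under the 25th percentile of all probe sets (4.10) were left out, which left 16708 genes. All 10 members matched RefSeq by gene identifier and passed this filter.

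KO and WT were compared with limma 3.58.1 (R 4.3.3, lmFit and eBayes, two-sided) on all 4 arrays, with Benjamini-Hochberg adjustment over all genes and a threshold of 0.05. The lone WT array is assumed to vary like the KO arrays (2 residual and 5.05 prior degrees of freedom). The fit was tested on simulated data. The number of arrays limits the precision. The members and gene lists were chosen with earlier results of these data known. Genes named are Fbxo32, the members, genes of the lists under an unadjusted p of 0.05 or described by role, and the 3 nearest to Rcan1, where predicted genes were skipped. Some genes of the lists are not reported here. NFAT and AP-1 letters were searched in RefSeq promoter windows.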

Additional observations from a re-analysis of the deposited data

How the results depend on the processing

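Under the 13 alternatives Rcan1 kept its sign, between -0.98 and -0.72, and its adjusted limma p stayed above 0.05 (0.458 to 0.997). Its unadjusted p was under 0.05 in 12 of them, the exception being the Xist class as a covariate. Without KO 1, 2 or 3 its difference lay between -0.98 and -0.72. The sign changed in 3 members. Nfatc1 gave -0.10 to 0.03 when 1 KO array was left out and 0.09 with the Xist class. Nfatc4 gave -0.09 to 0.11 when 1 KO array was left out. Rcan2 gave -0.02 with the Xist class. In the other members, Rcan1 included, the sign held in all 13. Each member has 1 probe set, so changes of probe set, filter or eBayes setting could not move its difference. A sign could change only with median centring, renewed quantile normalization, the Xist class or 1 KO array left out.

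The count of genes called by limma was 1, and it became 7 with an intensity trend, 7 with median centring, 9 with robust eBayes, 3 with the filter at the 50th percentile and 3 with the lowest-mean probe set. It was 0 with no filter (1045 genes at an unadjusted p under 0.05), 0 with renewed quantile normalization (945), 0 with the Xist class (742) and 0 without any 1 KO array (477 to 1665). The cause was not tested. The adjusted p of Fbxo32 ranged from 0.0185 to 0.997. The filter percentile taken over probe sets with 1 symbol (4.71, 14914 genes), chosen after seeing the data, left the count at 1. No paired analysis was possible, because there is 1 WT array and the labels name no pairs.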
